A study of Mus musculus with 6 samples.

Results

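The genes described here are those of the mouse major histocompatibility complex (MHC), called H2, and the genes that prepare peptides for it. They were chosen by name: every gene whose symbol starts with H2-, without the -ps pseudogene names, and B2m, Tap1, Tap2, Tapbp, Psmb8, Psmb9, Psmb10, Ciita, Cd74 and Nlrc5. This gave 51 genes of the 35275 in the deposited FPKM table, where FPKM is a read count scaled to the length of the gene and the size of the library. They comprised 3 classical class I, 26 nonclassical class I and 11 class II genes, 10 genes of processing and regulation, and H2-Ke6, which carries an H2 name but encodes an enzyme of steroid and fatty acid metabolism.

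Class I molecules consist of a heavy chain and the small subunit B2m, and display peptides cut in the cytosol on nearly every nucleated cell. The immunoproteasome subunits Psmb8, Psmb9 and Psmb10 cut the peptides, the Tap1 and Tap2 transporter carries them into the endoplasmic reticulum, and Tapbp (tapasin) edits their loading. Class II molecules load peptides from endosomes with the help of the invariant chain Cd74 and the H2-DM exchange factor, which H2-O restrains. They are abundant on B cells, dendritic cells and macrophages, and are also found on haematopoietic stem cells (HSCs). Nlrc5 and Ciita are the transcriptional coactivators of class I and class II genes.

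RNA was sequenced from HSCs sorted from the bone marrow of adult mice, about 2000 cells per library. There were 3 libraries from mice of a genotype given as Ramp-/- and titled Ramp1 mutant, and 3 from Ramp1+/+ mice, called wild type here. Ramp1 is a subunit of the receptor for the neuropeptide CGRP, and the series title ties it to stem cell mobilization by pain-sensing nerves. The labels do not name the allele, the strain or the sex, nor say that each library is a separate mouse, so p-values measure only the spread between these libraries. Replicate numbers are those of the labels, and values of 3 libraries are given in the order of replicates 1, 2 and 3.

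The libraries held 22796771 to 26734561 counted reads. Ramp1 had 3.53, 2.65 and 1.35 FPKM in mutant libraries, against 91.4, 88.3 and 91.0 FPKM in wild-type libraries (log2 fold change -5.17, SE 0.31; edgeR quasi-likelihood test, adjusted p = 0.00146). The 10 HSC markers, among them Kit and Procr, summed to 1214 to 1522 FPKM in mutant and 1178 to 1432 FPKM in wild-type libraries. In both groups replicate 1 alone held Y-linked reads, 6137 in the mutant and 6527 in the wild type against at most 2 elsewhere, so its cells were male and those of the other 4 libraries female by this measure. Neutrophil markers spread widely, from 181 to 1139 summed FPKM in mutant and 32.3 to 822 in wild-type libraries. In bulk libraries more cells of a type and more RNA per cell cannot be told apart.

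The HSC libraries of both genotypes held class I transcripts at some of the highest levels in the table and class II transcripts at moderate levels. B2m ranked 1st of all genes by mean FPKM, H2-K1 8th and H2-D1 11th, and these 3 genes made up 1.82 ± 0.111% of all FPKM in mutant and 1.71 ± 0.215% in wild-type HSCs (SD, n = 3 each). All 51 genes together made up 2.25 ± 0.173% in mutant and 2.13 ± 0.285% in wild-type HSCs. Summed over its members, class II made up 0.0941 ± 0.0272% in mutant and 0.0902 ± 0.0296% in wild-type HSCs. A mean of at least 1 FPKM was reached by 31 of the 51 genes, and the same 31 passed the filter on low counts and were tested. The other 20 had at most 0.625 FPKM in any library, and 12 of them were at 0 in every library.

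**Figure D1:**
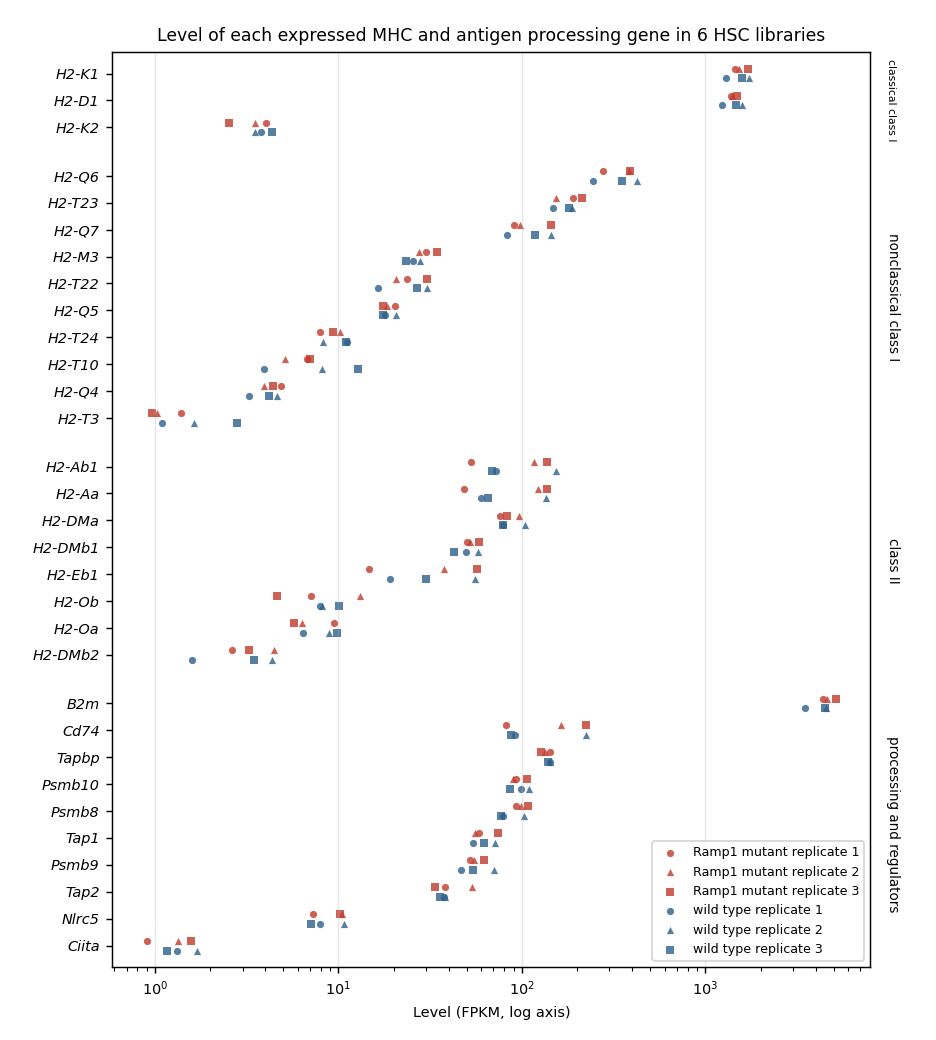
FPKM on a log axis for the 31 genes with a mean of at least 1 FPKM, by class, with 1 point per library and mutant libraries drawn above wild-type ones in each row. B2m, H2-K1 and H2-D1 stand above the other 28 genes in every library, and H2-Ab1, H2-Aa, H2-Eb1 and Cd74 spread more widely than B2m, H2-K1 and H2-D1.

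The classical class I genes H2-K1 and H2-D1, which present peptides to CD8 T cells, were nearly equal to each other. H2-K1 (mm10 chromosome 17, 33996017 to 34000333) had 1455, 1531 and 1717 FPKM in mutant libraries, against 1289, 1731 and 1587 FPKM in wild-type libraries. H2-D1 (chromosome 17, 35262730 to 35267499) had 1386, 1405 and 1485 FPKM in mutant libraries, against 1227, 1586 and 1467 FPKM in wild-type libraries. Wild-type replicate 1 was lowest and wild-type replicate 2 highest for both, with all mutant libraries between them, so the groups overlapped. Within a library the ratio of H2-K1 to H2-D1 stayed between 1.05 and 1.16. H2-K2, annotated as a pseudogene next to H2-K1, had 4.01, 3.49 and 2.54 FPKM in mutant libraries, against 3.76, 3.49 and 4.32 FPKM in wild-type libraries, and mutant replicate 3 was lowest.

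B2m (chromosome 2, 122147686 to 122153083), the invariant subunit of every class I molecule, had 4372, 4602 and 5156 FPKM in mutant libraries, against 3504, 4523 and 4507 FPKM in wild-type libraries. Mutant replicate 3 was highest and wild-type replicate 1 lowest, mutant replicate 1 lay within the wild-type range and mutant replicate 2 just above it (log2 fold change 0.17, SE 0.12). Set against the sum of H2-K1 and H2-D1, the B2m ratio was 1.54, 1.57 and 1.61 in mutant libraries and 1.39, 1.36 and 1.48 in wild-type libraries. These do not overlap, but 3 against 3 libraries cannot give an exact permutation p under 0.1, two-sided, and the ratio's p of 0.1 became 0.933 when adjusted over the 14 ratios computed. It was the only one of the 14 ratios with separate groups.

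Some of the promoters hold short elements known from class I and class II control, and a few with and without them are shown to let the letters be compared. Sequences are from RefSeq, build GRCm38.p6 (mm10), 250 bases before to 50 after the annotated start, 5′ to 3′ on the gene's strand. Capitals mark fixed letters on either strand: the kappa B form GGGGATTCC, the interferon response core in the form GAANNGAAA, and a TGACG and ATTGG pair. In the pair ATTGG follows TGACG with 10 to 25 bases between them, which resembles the X2 and Y boxes bound by the Nlrc5 and Ciita assemblies. Other forms of the kappa B site and the interferon response core were not searched. H2-K1 (chr17:34000298-34000597, minus strand), H2-D1 (chr17:35262844-35263143, plus strand) and H2-Q7 (chr17:35438905-35439204, plus strand) show all of them, B2m (chr2:122147437-122147736, plus strand) and H2-Aa (chr17:34287774-34288073, minus strand) only the last, and H2-M10.3 (chr17:36368368-36368667, minus strand), at 0 FPKM in every library, none.
H2-K1: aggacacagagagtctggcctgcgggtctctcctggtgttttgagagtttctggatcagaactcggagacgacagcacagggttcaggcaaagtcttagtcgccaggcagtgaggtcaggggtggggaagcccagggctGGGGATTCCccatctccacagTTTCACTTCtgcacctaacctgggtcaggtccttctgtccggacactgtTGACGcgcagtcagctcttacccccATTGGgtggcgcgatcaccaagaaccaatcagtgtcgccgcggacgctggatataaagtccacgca
H2-D1: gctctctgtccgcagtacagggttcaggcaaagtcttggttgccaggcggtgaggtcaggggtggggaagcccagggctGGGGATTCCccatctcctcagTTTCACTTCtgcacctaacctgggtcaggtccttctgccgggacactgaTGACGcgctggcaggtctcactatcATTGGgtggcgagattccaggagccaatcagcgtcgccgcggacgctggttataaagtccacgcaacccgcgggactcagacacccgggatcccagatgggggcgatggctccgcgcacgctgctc
H2-Q7: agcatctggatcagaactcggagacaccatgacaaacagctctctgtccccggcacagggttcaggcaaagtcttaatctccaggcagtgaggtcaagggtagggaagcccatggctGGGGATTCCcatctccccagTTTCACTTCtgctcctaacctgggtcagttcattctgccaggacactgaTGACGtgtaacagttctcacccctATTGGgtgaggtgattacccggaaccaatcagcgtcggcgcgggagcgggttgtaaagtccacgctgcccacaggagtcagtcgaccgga
B2m: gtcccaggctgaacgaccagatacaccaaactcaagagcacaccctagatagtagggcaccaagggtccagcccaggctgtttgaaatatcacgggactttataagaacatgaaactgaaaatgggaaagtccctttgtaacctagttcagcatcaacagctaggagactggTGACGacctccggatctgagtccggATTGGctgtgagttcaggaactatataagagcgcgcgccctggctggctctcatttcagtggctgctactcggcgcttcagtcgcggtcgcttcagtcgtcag
H2-Aa: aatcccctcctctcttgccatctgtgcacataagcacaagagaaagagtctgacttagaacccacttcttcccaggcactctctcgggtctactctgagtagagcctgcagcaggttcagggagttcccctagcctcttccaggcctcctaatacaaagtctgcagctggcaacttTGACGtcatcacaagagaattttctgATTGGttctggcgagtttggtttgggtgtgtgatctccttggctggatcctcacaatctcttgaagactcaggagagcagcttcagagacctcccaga
H2-M10.3: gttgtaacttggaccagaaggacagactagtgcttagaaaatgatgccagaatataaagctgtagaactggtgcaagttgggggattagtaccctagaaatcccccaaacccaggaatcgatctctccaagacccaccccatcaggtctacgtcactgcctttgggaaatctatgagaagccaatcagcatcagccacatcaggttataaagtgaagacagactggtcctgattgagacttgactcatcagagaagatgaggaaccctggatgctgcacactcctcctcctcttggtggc

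In H2-K1 the kappa B letters start 111 bases and the interferon response core 90 bases before the annotated start, and TGACG starts 41 bases before it. These distances are for 1 of 2 RefSeq starts of H2-K1, and from the other they are 125, 104 and 55 bases. The order was the same in H2-D1 and H2-Q7, at 171, 150 and 101 bases and at 133, 113 and 64 bases, and no base was shared between the kappa B and interferon letters. A promoter entry was found for 37 of the 51 genes, 22 of them with at least 1 FPKM. The kappa B letters were in 4 of these 22 (H2-K1, H2-D1, H2-Q6 and H2-Q7), in 0 of the 15 with less, and in 0.259% of the 27025 promoters of all genes. These 4 promoters have closely similar letters around this site and the interferon response core, so they are not 4 independent occurrences. The interferon response core in the form searched was in 6 of the 22, all class I genes, in 2 of the 15 and in 7.56% of all. The TGACG and ATTGG pair was in 6 of the 22 (H2-K1, H2-D1, H2-Q7, H2-M3, B2m and H2-Aa), in 0 of the 15 and in 0.648% of all. H2-Aa was thus the only 1 of 7 class II genes, and B2m the only 1 of 6 processing genes, among the 22 with any of the 3 in the forms searched. The class I gene H2-T23, with a mean of 179 FPKM, held none of the 3 in these forms. Its window may still hold an interferon response core of another form, as other forms were not searched. H2-Q10 and H2-M2, both below 1 FPKM, held the interferon letters GAANNGAAA. Such matches describe the letters only, and a gene without one may hold a variant of the element or an element outside the window.

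Peptide supply and loading genes were expressed in all libraries at levels far under B2m. Tapbp, the peptide editor, was the steadiest of all 31 genes, with 143, 134 and 127 FPKM in mutant libraries, against 142, 142 and 138 FPKM in wild-type libraries. Tap1 had 58.2, 55.7 and 73.7 FPKM in mutant libraries, against 54.0, 71.3 and 62.1 FPKM in wild-type libraries. Its partner Tap2 had 38.3, 53.3 and 33.8 FPKM in mutant libraries, against 37.4, 38.3 and 35.7 FPKM in wild-type libraries, where mutant replicate 2 stood above the other 5 libraries. The ratio of Tap1 to Tap2 of these transporter subunits ran from 1.04 to 2.18 over the libraries.

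Tap1 and Psmb9 are neighbours read in opposite directions, and their promoter windows share 275 bases (chr17:34187306-34187580). Psmb9 had 52.1, 54.7 and 62.1 FPKM in mutant libraries, against 46.3, 70.4 and 54.1 FPKM in wild-type libraries. The ratio of Tap1 to Psmb9 stayed between 1.01 and 1.19, a smaller spread than that of Tap1 to Tap2. Psmb8 had 92.8, 99.1 and 108 FPKM in mutant libraries, against 79.2, 102 and 77.1 FPKM in wild-type libraries, with all mutant libraries above wild-type replicates 1 and 3 and wild-type replicate 2 among them (log2 fold change 0.21, SE 0.14). Psmb10, on chromosome 8, had 93.3, 89.5 and 107 FPKM in mutant libraries, against 98.8, 109.8 and 86.2 FPKM in wild-type libraries, and the groups overlapped.

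Against the constitutive proteasome subunits that they replace, the immunosubunits differed in level. Psmb10 exceeded Psmb7 in every library, with ratios of 1.15, 1.20 and 1.13 in mutant and 1.19, 1.23 and 1.02 in wild-type libraries. Psmb8 relative to Psmb5 had 0.820, 0.806 and 0.737 in mutant and 1.0, 0.681 and 0.601 in wild-type libraries. Psmb9 relative to Psmb6 was lower, between 0.196 and 0.290 over all libraries.

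Nonclassical class I genes differed widely among themselves, and only part of the clusters was transcribed. The Q and T regions held 9 of the 10 genes with at least 1 FPKM. H2-Q6 (chromosome 17, 35424850 to 35430055) had 276, 383 and 389 FPKM in mutant libraries, against 245, 426 and 352 FPKM in wild-type libraries. H2-Q7 (chromosome 17, 35439155 to 35443773), which is among the genes encoding the Qa-2 antigen, had 90.6, 97.4 and 144 FPKM in mutant libraries, against 82.9, 143 and 117 FPKM in wild-type libraries. Replicate 1 was lowest in both groups for both genes. H2-T23, which encodes Qa-1, the ligand of the NKG2A receptor on natural killer cells, had 191, 153 and 212 FPKM in mutant libraries, against 148, 188 and 181 FPKM in wild-type libraries. Mutant replicate 3 was highest and wild-type replicate 1 lowest.

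At middle levels, H2-M3, which presents formylated peptides, had 30.1, 27.5 and 34.5 FPKM in mutant libraries, against 25.5, 27.7 and 23.3 FPKM in wild-type libraries. Only mutant replicate 2 fell under a wild-type library, by a narrow margin, and H2-M3 had the smallest unadjusted p of the 31 genes (0.0880; log2 fold change 0.27, SE 0.14; edgeR adjusted p = 0.999). H2-T22, whose product is recognised by gamma delta T cells, had 23.7, 20.5 and 30.5 FPKM in mutant libraries, against 16.5, 30.4 and 26.8 FPKM in wild-type libraries. H2-T10, a close copy annotated as a polymorphic pseudogene, had 6.73, 5.09 and 6.96 FPKM in mutant libraries, against 3.93, 8.18 and 12.8 FPKM in wild-type libraries. Wild-type replicate 3 stood apart for H2-T10, with 1014 reads against 338 to 690 in the other libraries, and was not the highest for H2-T22. H2-Q5, also a polymorphic pseudogene, had 20.3, 18.4 and 17.5 FPKM in mutant libraries, against 17.9, 20.7 and 17.5 FPKM in wild-type libraries.

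The lowest of the tested genes showed no separation either. H2-T24 had 7.96, 10.3 and 9.31 FPKM in mutant libraries, against 11.2, 8.21 and 10.9 FPKM in wild-type libraries. H2-Q4 had 4.88, 3.93 and 4.42 FPKM in mutant libraries, against 3.27, 4.61 and 4.19 FPKM in wild-type libraries. H2-T3, which encodes the TL antigen, had 1.39, 1.02 and 0.959 FPKM in mutant libraries, against 1.09, 1.63 and 2.80 FPKM in wild-type libraries, from 55 to 151 reads per library. It had the most negative difference of all (log2 fold change -0.71, SE 0.41; unadjusted p = 0.124), with wild-type replicate 3 again the highest and wild-type replicate 1 inside the mutant range.

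**Figure D2:**
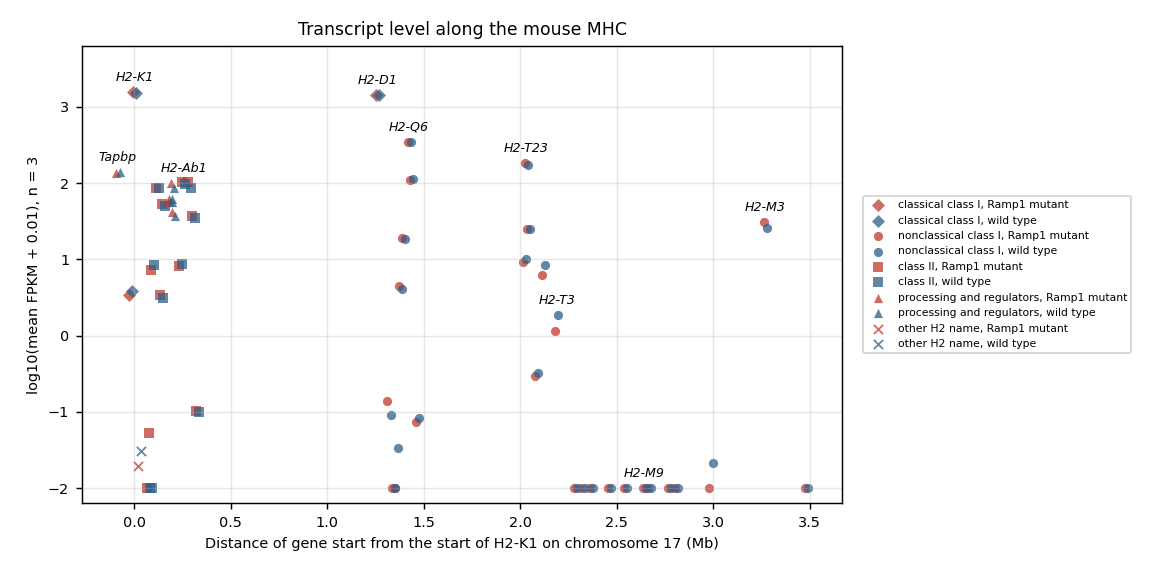
Mean level of each gene on chromosome 17 (log10 of the mean FPKM of 3 libraries plus 0.01) against the distance of its start from that of H2-K1 in GENCODE M21, with the mutant point left of the wild-type one. Genes between the T region and H2-M3 lie at the floor, which is a level of 0, or next to it.

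Most silent genes lay together. H2-M10.1 to H2-M10.6, H2-M11, H2-M9, H2-M1 and H2-M2 were at 0 FPKM in all 6 libraries, as were H2-Q2 and the class II pseudogene H2-Pb. None of these 12 has an entry in the count table, so their levels rest on the FPKM table alone. H2-M5 and H2-Q3 had a value only in wild-type replicate 3 (0.0348 and 0.0704 FPKM) and H2-Pa only in mutant replicate 3 (0.129 FPKM). H2-Bl, H2-Q1 and H2-Q10 had 1 to 17 reads per library, H2-Eb2 0 to 12 and H2-Ke6 0 to 2.

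Close copies limit how these values can be assigned. In GENCODE M21 transcripts, 31.7% of the 50-base words of H2-T10 also occur in H2-T22, 25.5% of those of H2-Q5 occur in H2-Q7, and 13.9% of those of H2-Q6 occur in H2-Q7. Counting every other gene, the shares at 50 bases were 32.9% for H2-T10, 36.4% for H2-Q5 and 32.0% for H2-Q6, and at 100 bases 7.06%, 14.0% and 10.8%. H2-Ke6 shared most, 70.5% of its 50-base and 61.6% of its 100-base words with Gm20427. For H2-K1 and H2-D1 the shares were 9.63% and 12.8% at 50 bases and 0.957% and 3.59% at 100 bases. B2m, Cd74, H2-Ab1 and H2-Eb1 shared 0% at both lengths. The read length, and how reads with several matches were counted, are not given in the sources used here, so levels of the Q and T genes and of H2-Ke6 may include or lose reads of their copies, and its few reads do not show that H2-Ke6 was silent.

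Class II chains were among the most variable of the set, they were high and low in the same libraries, and the high ones were of both genotypes. The beta chain H2-Ab1 (chromosome 17, 34263209 to 34269418) had 53.1, 116 and 137 FPKM in mutant libraries, against 72.1, 153 and 68.5 FPKM in wild-type libraries. The alpha chain H2-Aa (chromosome 17, 34282744 to 34287827) had 48.4, 122 and 136 FPKM in mutant libraries, against 59.5, 136 and 65.7 FPKM in wild-type libraries. Cd74 (chromosome 18, 60803848 to 60812646), the invariant chain, had 82.1, 164 and 224 FPKM in mutant libraries, against 91.6, 222 and 87.4 FPKM in wild-type libraries. Mutant replicates 2 and 3 and wild-type replicate 2 were the high libraries for each of these, and mutant replicate 1 and wild-type replicates 1 and 3 the low ones.

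H2-Eb1, the other beta chain, had 14.7, 37.7 and 56.8 FPKM in mutant libraries, against 19.2, 55.4 and 29.9 FPKM in wild-type libraries, with the same 3 libraries on top. Its alpha partner carries a -ps name and was not included. From the lowest to the highest library these genes spanned 2.88-fold (H2-Ab1), 2.82-fold (H2-Aa), 2.73-fold (Cd74) and 3.87-fold (H2-Eb1) in FPKM. On library-normalised log2 counts, 97.5% to 98.5% of the 6929 genes with at least 10 FPKM had a smaller range than these 4, and the median gene spanned 1.33-fold. The ratio of H2-Aa to H2-Ab1 stayed between 0.825 and 1.05 and that of Cd74 to H2-Ab1 between 1.27 and 1.64.

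Of the peptide exchange genes, H2-DMa and H2-DMb1 moved less than the class II chains, while H2-DMb2 spread about as widely as H2-Aa. Mutant replicates 2 and 3 and wild-type replicate 2 were again the highest libraries for H2-DMa and H2-DMb1. H2-DMa had 76.0, 96.7 and 82.9 FPKM in mutant libraries, against 78.7, 104 and 78.8 FPKM in wild-type libraries. H2-DMb1 had 50.3, 52.4 and 58.4 FPKM in mutant libraries, against 49.6, 57.4 and 42.5 FPKM in wild-type libraries. H2-DMb2, a copy that shares 21.2% of its 50-base words with H2-DMb1, had 2.63, 4.46 and 3.23 FPKM in mutant libraries, against 1.60, 4.36 and 3.46 FPKM in wild-type libraries. The highest library exceeded the lowest by 1.37-fold for both H2-DMa and H2-DMb1, against 2.80-fold for H2-DMb2.

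The 2 subunit genes of the H2-O inhibitor did not follow the class II pattern. H2-Oa had 9.41, 6.29 and 5.73 FPKM in mutant libraries, against 6.41, 8.85 and 9.80 FPKM in wild-type libraries. H2-Ob had 7.08, 13.1 and 4.63 FPKM in mutant libraries, against 7.93, 8.09 and 10.1 FPKM in wild-type libraries. Mutant replicate 3 was the lowest library for both, although it was among the highest for the class II chains, and mutant replicate 2 was the highest for H2-Ob only. The ratio of H2-Oa to H2-Ob ran from 0.480 to 1.33.

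Some B cell genes had the same high libraries as class II. Of 10 B cell markers, Pax5 was at 0 in every library. Ms4a1 had 0, 1.29 and 0.459 FPKM in mutant libraries, against 0, 0.902 and 0 FPKM in wild-type libraries. Cd79a had 0.963, 2.39 and 2.30 FPKM in mutant libraries, against 0.135, 1.96 and 0.734 FPKM in wild-type libraries. Within each genotype both were lowest in replicate 1, for Ms4a1 together with wild-type replicate 3, and both were highest in mutant replicate 2. Summed over the 10 markers the level was 38.9 to 50.5 FPKM in mutant and 41.1 to 43.4 FPKM in wild-type libraries, most of it Cd79b. The other 9 summed to 3.41, 8.91 and 7.15 FPKM in mutant libraries, against 1.33, 5.64 and 4.19 FPKM in wild-type libraries.

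Igkc and Ighm, an immunoglobulin light and a heavy chain, were looked up with another 4 B cell genes after these values were seen. Igkc had 0.543, 36.8 and 10.9 FPKM in mutant libraries, against 0.488, 12.3 and 1.46 FPKM in wild-type libraries. Ighm had 2.0, 19.6 and 10.1 FPKM in mutant libraries, against 1.66, 6.66 and 7.0 FPKM in wild-type libraries, with wild-type replicate 3 as high as replicate 2. Igkc was thus high in the 3 libraries with high class II, but most so in mutant replicate 2, while Cd74 was higher in mutant replicate 3 and wild-type replicate 2. The other 4 did not have the class II order of libraries. Iglc2, another light chain, had 1.88, 0.617 and 0.931 FPKM in mutant libraries, against 0, 0.332 and 1.20 FPKM in wild-type libraries. Pou2af1, a B cell coactivator, had 0, 0.860 and 0.644 FPKM in mutant libraries, against 0, 0.219 and 1.58 FPKM in wild-type libraries. Fcer2a had 0, 0.150 and 0.288 FPKM in mutant libraries, against 0, 0.143 and 0.458 FPKM in wild-type libraries. Blk had 0, 0.469 and 0.0814 FPKM in mutant libraries, against 0, 0.0974 and 0.311 FPKM in wild-type libraries, and wild-type replicate 3, a low library for class II, was the highest for Pou2af1 and Fcer2a. Dendritic cell markers, most of them Bst2 and Flt3, summed to 85.9, 89.0 and 106 FPKM in mutant and 84.4, 96.5 and 66.3 FPKM in wild-type libraries, with Itgax at most 0.0542 FPKM. Macrophage and monocyte markers summed to 12.1, 37.4 and 47.5 FPKM in mutant and 36.1, 40.1 and 36.5 FPKM in wild-type libraries. Neutrophil markers summed to 181, 837 and 1139 FPKM in mutant and 32.3, 306 and 822 FPKM in wild-type libraries, so they were high in mutant replicates 2 and 3 and low in replicate 1 of both groups, as class II was, but also high in wild-type replicate 3. The part of B cells and of these other cell types in the class II levels was not tested.

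**Figure D3:**
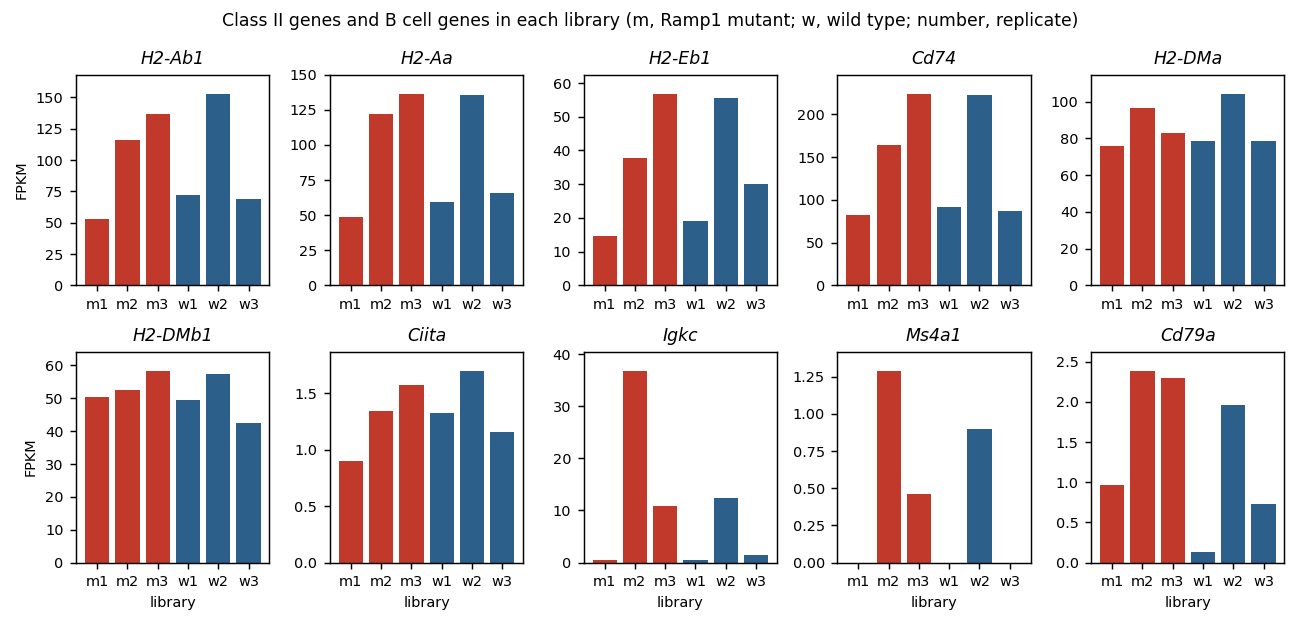
Bars give FPKM in each library from 0, mutant (m) left and wild type (w) right, for class II genes, Cd74 and Ciita and for the B cell genes Igkc, Ms4a1 and Cd79a. Mutant replicates 2 and 3 and wild-type replicate 2 are high in H2-Ab1, H2-Aa, H2-Eb1, Cd74, Igkc, Ms4a1 and Cd79a, and H2-DMa and H2-DMb1 are flatter.

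The coactivators were low, and their groups overlapped. Nlrc5 on chromosome 8 had 7.30, 10.5 and 10.2 FPKM in mutant libraries, against 7.96, 10.7 and 7.06 FPKM in wild-type libraries. Ciita on chromosome 16 had 0.902, 1.34 and 1.57 FPKM in mutant libraries, against 1.32, 1.70 and 1.16 FPKM in wild-type libraries, from 108 to 222 reads per library. The 3 libraries highest for the class II chains were also the 3 with the highest values of both Ciita and Nlrc5. Both spread less than those chains, and for Ciita mutant replicate 2 (1.34 FPKM) was barely above wild-type replicate 1 (1.32 FPKM). The same 3 libraries were also highest for B2m, H2-Q6, Psmb8, Psmb9, H2-DMa and H2-DMb1, so they were not particular to class II and the coactivators. How many of all genes share these top libraries was not counted. As mRNA levels, the Ciita and Nlrc5 values say nothing of the activity of the proteins.

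Other genes of the pathway showed no call past the adjusted threshold. Among 21 tested genes for transcription of MHC genes, Nlrc5 and Ciita included, the mutant mean was higher for 13 and lower for 8. Of the 21, 0 passed the adjusted threshold and 2 had an unadjusted p under 0.05, as did 3.99% of all genes tested. Irf2, an interferon regulatory factor, had 50.5, 46.6 and 29.7 FPKM in mutant libraries, against 32.4, 25.9 and 32.3 FPKM in wild-type libraries (log2 fold change 0.49, SE 0.20; unadjusted p = 0.0380). Nfyb, a subunit of the Y box factor, had 10.3, 10.8 and 14.1 FPKM in mutant libraries, against 17.7, 17.9 and 13.5 FPKM in wild-type libraries (log2 fold change -0.48, SE 0.17; unadjusted p = 0.0257). In each of them mutant replicate 3 lay inside the wild-type range. The most abundant of this list were Jak1, with 173 ± 22.1 FPKM in mutant HSCs and 156 ± 8.43 FPKM in wild-type HSCs, and the interferon gamma receptor chain Ifngr1, with 115 ± 16.1 FPKM in mutant HSCs and 104 ± 2.17 FPKM in wild-type HSCs (SD, n = 3 each).

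In the list of class I loading and peptide supply, which includes 7 genes already described, 15 of 22 tested genes had higher and 7 lower values, and 0 had an unadjusted p under 0.05. After B2m its most abundant gene was the chaperone Calr, with 360.2 ± 35.9 FPKM in mutant HSCs and 354 ± 4.45 FPKM in wild-type HSCs (SD, n = 3 each). Of 10 tested genes of class II processing and turnover, Cd74 included, 6 had higher and 4 lower values, and 0 had an unadjusted p under 0.05. The endosomal protease Ctsd led it with 305 ± 9.52 FPKM in mutant HSCs and 296 ± 8.31 FPKM in wild-type HSCs, ahead of Cd74. Of 8 tested genes with an MHC fold but no H2 name, 6 had higher and 2 lower values, again 0 with an unadjusted p under 0.05. Procr, the EPCR marker of HSCs, had 65.7 ± 8.62 FPKM in mutant HSCs and 56.9 ± 5.03 FPKM in wild-type HSCs, and Fcgrt, the neonatal Fc receptor, 36.9 ± 7.30 FPKM in mutant HSCs and 36.7 ± 2.90 FPKM in wild-type HSCs.

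The study's comparison asks which transcripts differ in HSCs of Ramp1 mutant mice, and for these genes no difference passed the test. None of the 31 tested genes had an adjusted p under 0.05 by edgeR's quasi-likelihood test over 14443 genes, where 0.0208% of all genes were called. None had an unadjusted p under 0.05 (3.99% of all genes did), and in none did the 3 mutant libraries lie entirely above or below the 3 wild-type ones (10.3% of all genes did). Mutant values were higher for 18 and lower for 13 genes, with a median log2 fold change of 0.016, against 50.1% higher and a median of 0.00030 over all genes. By class the median was -0.00094 for the 3 classical class I genes, 0.010 for 10 nonclassical class I, 0.063 for 8 class II and 0.061 for 10 processing and regulator genes.

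**Figure D4:**
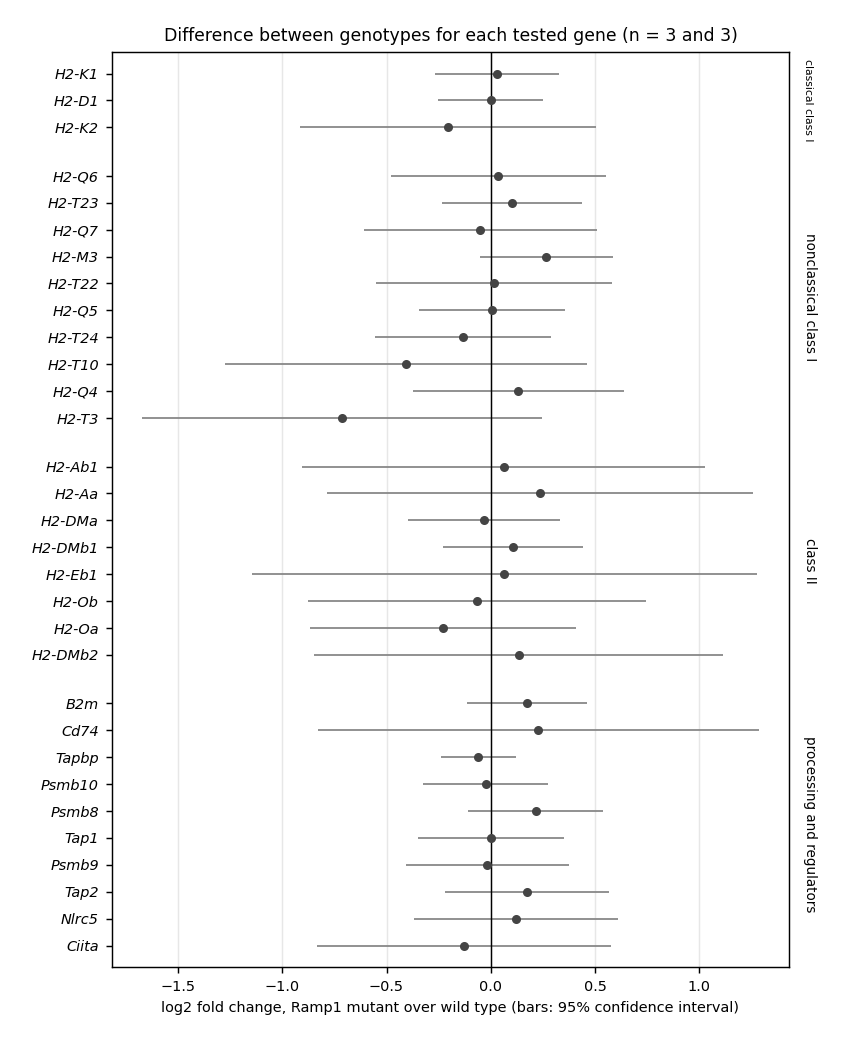
Points give the log2 fold change of mutant over wild-type HSCs for the 31 tested genes and bars its 95% confidence interval from the edgeR fit, with 3 libraries per group. Every interval includes 0, and those of H2-Ab1, H2-Aa, H2-Eb1, H2-DMb2, H2-T10, H2-T3 and Cd74 reach beyond a 2-fold change.

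How large a difference these libraries could have missed depended on the gene. The 95% interval lay inside a 1.25-fold change either way for H2-D1 (log2 -0.25 to 0.25) and Tapbp (-0.24 to 0.12). It lay inside 1.5-fold for 17 of the 31 genes, among them H2-K1 (-0.27 to 0.33), B2m (-0.11 to 0.46), Tap1, Tap2 and all 3 immunoproteasome subunits, and inside 2-fold for 24. For H2-Ab1 (-0.91 to 1.03), H2-Aa (-0.79 to 1.26), H2-Eb1 (-1.14 to 1.27), H2-DMb2, H2-T10, H2-T3 and Cd74 (-0.83 to 1.28) a 2-fold change in at least 1 direction was within the interval. A p over the threshold therefore does not show equal levels, least of all for class II.

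The authors' deposited table gives an adjusted p-value for 35 of these genes, and 0 are under 0.05 there, against 37 of all genes. Its smallest unadjusted p-value among them is 0.110, for H2-M3. DESeq2 run here on the same read counts also called 0 of these genes, with 0.265% of all genes called. With both male libraries left out, 0 of these genes passed either. These tests share the same counts and are not independent of each other.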

How the data were processed

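RNA-seq of 6 HSC libraries was analysed, grouped by the genotype in the labels. The authors deposited raw read counts per gene for 18368 genes, with size-factor-normalized values (a signal unit), log2 fold changes and p-values of their own comparison, and FPKM for 35275 genes. CASAVA, STAR, HTSeq 0.6.1, DESeq2 and mm10 are named, without their role, in the submitters' processing notes; annotation release, strand setting and read length are not given in the sources used here. Overlapping genes may therefore share reads.

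edgeR 4.0.16 (R 4.3.3; TMM, filterByExpr, quasi-likelihood F test, two-sided) was fitted to all counts, with Benjamini-Hochberg adjustment over all 14443 genes tested and a threshold of 0.05. Standard errors were derived from the F statistic (absolute log2 fold change over its root), and intervals are 95%. The fit was checked on simulated counts. Alternatives were other scalings and filters, DESeq2 1.42.0, limma 3.58.1 on log2 values of FPKM, omission of each library, a replicate block and Y-linked reads as a covariate.

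Genes with a mean of at least 1 FPKM or an unadjusted p under 0.05 were described one by one; from each pathway list, genes with such a p and the 2 most abundant. Dendritic, neutrophil, macrophage, B, T and NK, and endothelial and stromal marker lists were summed: T and NK markers had 34.2 to 56.8 FPKM in mutant and 44.8 to 71.8 in wild-type libraries, endothelial and stromal ones 41.3 to 49.0 in mutant and 49.8 to 66.3 in wild-type libraries. Transcript words of 50 and 100 bases came from GENCODE M21 (GRCm38). Members and lists were chosen with earlier results of these data known, and the 14 ratios and the 6 added B cell genes after values were seen.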

Additional observations from a re-analysis of the deposited data

How the results depend on the processing

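Over 18 alternatives, 0 of the 31 genes passed an adjusted p of 0.05 in any, and the lowest adjusted p was 0.722 (Tap2). The lowest unadjusted p was 0.016 (H2-T10). Of 558 values, 84 had another sign than the one reported, all of them uncalled; B2m, H2-M3 and Psmb8 stayed above 0 and H2-K2, H2-Oa, H2-T3 and Tapbp below 0 throughout. The class II median had the widest range, from -0.13 without wild-type replicate 1 to 0.36 without wild-type replicate 2. Over all genes, where 1 was higher and 2 lower, DESeq2 called 21 higher and 23 lower. There were 2 higher genes with no filter on low counts, with robust dispersions and with limma on log2(FPKM + 1) or log2(FPKM + 0.1). There was 1 lower gene with unfiltered limma, with Y-linked reads as a covariate and without both replicates 1. Leaving out 1 library gave 1 to 2 higher and 1 to 4 lower genes, the 4 without mutant replicate 2; the cause of these changes was not tested. The replicate block gave 1 lower gene and called 0 of the 31. Same-numbered libraries deviated from their group means with correlations of 0.14, 0.0018 and -0.094, and libraries of unlike number with -0.13 to 0.15. These values do not settle whether the numbers pair the libraries, and replicate 1 alone held Y-linked reads in both groups. H2-T3, H2-K2 and H2-DMb2 had the fewest reads of the tested genes in a library (55, 66 and 60), and whether depth limited them was not tested.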

Other observations

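Cd1d2, a lipid-presenting gene with an MHC fold, stood apart in 1 library and was picked after its values were seen. It had 19.3, 15.3 and 0.713 FPKM in mutant libraries, against 12.7, 16.9 and 13.2 FPKM in wild-type libraries. Mutant replicate 3 held 22 reads of it, against 383 to 547 in the other libraries. Its neighbour Cd1d1, which holds 31.0% of the 50-base words of Cd1d2, had 29.5, 37.0 and 28.2 FPKM in mutant libraries, against 34.3, 38.6 and 40.9 FPKM in wild-type libraries, with mutant replicate 3 lowest but close to mutant replicate 1. Other libraries of both genotypes had Cd1d2 levels near each other, so the low value belongs to 1 library and not to the mutant group. Mill2, another class I-like gene outside the H2 names, had 6.93, 10.9 and 5.75 FPKM in mutant libraries, against 7.32, 4.48 and 8.48 FPKM in wild-type libraries. The NKG2D ligand gene Ulbp1 had 3.69, 4.28 and 2.86 FPKM in mutant libraries, against 2.39, 2.89 and 3.13 FPKM in wild-type libraries, while Raet1d, Raet1e and H60b stayed at or under 0.281 FPKM.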
